A study of Mus musculus with 61 samples.

Results

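STAT5B without mutation was put back into CD4+ T cells that lacked both Stat5a and Stat5b, and the resulting transcriptomes were set against those of WT CD4+ T cells, to see which genes stayed away from the WT level when only 1 of the 2 STAT5 paralogs was restored. The libraries were chosen by their titles: the 3 of Stat5a/b-null cells transduced with a retroviral vector encoding STAT5B and the 3 of WT cells with the empty vector, 6 of the 61 libraries of the series and 6 of its 30 CD4+ T cell libraries. The null cells came from mice in which Cd4-Cre, a Cre recombinase driven by the Cd4 promoter, deletes the floxed Stat5a/b locus in the thymus, at the stage when thymocytes carry both CD4 and CD8. The mice of all groups were C57BL/6 and 2 months old. Naive CD4+ cells, sorted as CD44 low and CD25-, were pooled from lymph nodes and spleens, activated with antibodies against the T cell receptor and CD28, transduced, cultured with IL-2 and sorted again as CD4+ and GFP+. The genotype entry of the labels names floxed Stat5a/b for all 30 libraries, those titled WT included, so WT and null were taken from the titles, and the labels of the WT group do not name the empty vector, which comes from the study's methods. Null cells with the empty vector and WT cells with the STAT5B vector, 3 libraries each, are given beside the comparison. Background, mouse line and cell pool cannot be told apart in this design, and no source says whether the libraries of a group came from separate mice or cultures, so the p-values measure only the spread between these libraries.

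STAT5A and STAT5B are transcription factors encoded by neighbouring, closely related genes. Cytokines that signal through the common gamma chain, IL-2 foremost in activated CD4+ T cells, lead to their phosphorylation by JAK kinases, after which they pair through their SH2 domains, enter the nucleus and bind sites with the palindromic core TTCNNNGAA. In T cells they are known for inducing feedback inhibitors of cytokine signalling such as Cish and Socs2, the high-affinity IL-2 receptor chain Il2ra and the kinase Pim1, and for restraining the follicular helper factor Bcl6. IL-2 signalling through STAT5 also shapes the choice among the helper, follicular and regulatory fates of CD4+ T cells.

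The 6 libraries held between 24437975 and 47040687 reads on genes. Values are given as CPM, read counts divided by the library size, which TMM scaling adjusts, and all differences are log2 fold changes from 1 edgeR quasi-likelihood fit over the 30 CD4+ T cell libraries, with Benjamini-Hochberg adjusted p-values across the 21975 genes tested. To be called, a gene needed an adjusted p below 0.05 together with a log2 fold change above 1 or below -1. WT library 3 stood apart from the other two: across 11459 genes its log2 CPM correlated at 0.983 and 0.981 with WT libraries 1 and 2, and at 0.990, 0.988 and 0.981 with the 3 null libraries with STAT5B. It also differed in Xist, the RNA of the inactive X chromosome, which stood at 0.715, 2.96 and 2068 CPM in WT and at 684, 2.98 and 1180 CPM in the null libraries with STAT5B, while the Y-linked gene Ddx3y stood at 85.5, 90.7 and 0.358 CPM in WT and at 71.2, 81.3 and 48.4 CPM in the null libraries. WT library 3 was thus of female cells, WT libraries 1 and 2 and null library 2 of male cells, and null libraries 1 and 3 held both transcripts. T cell markers summed to between 6141 and 6601 CPM in the null libraries with STAT5B and between 6439 and 8478 CPM in WT with the empty vector. B cell markers summed to at most 5.96 CPM, NK cell markers to at most 4.72 CPM and erythroid markers to at most 3.13 CPM in all 6 libraries.

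The vector restored the Stat5b transcript to above its WT level, and Stat5a stayed at its null level. Stat5b (chr11:100780731-100850724, mm10) stood at 355, 345 and 246 CPM in the null libraries with STAT5B and at 187, 209 and 207 CPM in WT, against 2.78, 5.30 and 9.49 CPM in null cells with the empty vector. The 3 libraries with the vector all lay above the 3 of WT, at 157% ± 30.01 of the WT mean (SD, n = 3), and p was 0.10 in a two-sided exact permutation test, the smallest that 3 libraries against 3 can give. In the fit over all genes the difference was not called (log2 fold change 0.65 ± 0.25 SE, adjusted p = 0.33). Library 3 had the least Stat5b of the 3. Reads from the vector and from the locus cannot be told apart in these counts, and transcript is not protein. Stat5a (chr11:100859351-100885169), the paralog beside it, stood at 1.95, 2.43 and 5.39 CPM in the null libraries with STAT5B against 137, 165 and 172 CPM in WT, 2.06% ± 1.18 of the WT mean (SD, n = 3, log2 fold change -5.65 ± 0.58 SE, adjusted p = 1.2e-06). The same exact test again gave p = 0.10. Null cells with the empty vector held 1.70, 3.13 and 6.66 CPM, so the vector did not detectably change it (log2 fold change -0.26 ± 0.55 SE, adjusted p = 0.92).

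With STAT5B alone restored, most genes of at least 1 CPM lay within 1 log2 unit of WT, and a small number were called away from it. Of the 21975 genes tested, 171 were called, 0.778% of them, with 92 higher than WT (0.419%) and 79 lower (0.359%). Counts of list members called, given below, stand beside these shares of all genes tested. In null cells with the empty vector, a comparison that uses the same WT libraries, 1029 genes were called against WT (4.68%), 561 higher (2.55%) and 468 lower (2.13%). The drop from 1029 to 171 is not a count of genes shown to be restored. Compared directly within null cells, STAT5B against the empty vector gave 72 called genes, 62 higher and 10 lower. Missing a threshold does not place a gene at the WT level, so the 95% interval of each fold change was read as well. Of 11360 genes that averaged 1 CPM or more in the 6 libraries, 9753 (85.9%) had an interval wholly within 1 log2 unit of WT, 157 (1.38%) were called, and the other 1450 (12.8%) were neither. The share called of all genes tested is lower than this 1.38%, since it includes genes under 1 CPM. Against WT cells that carried the same STAT5B vector, a comparison that shares the null libraries, 377 genes were called (1.72%), 186 higher (0.846%) and 191 lower (0.869%).

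The count of called genes depended on single libraries. It was 306 without WT library 3 and 489 with the third library of every group left out, and it was 57 without WT library 2, 85 without WT library 1, 72 without null library 3 and 113 without null library 1. The third libraries of both WT groups moved the count in the same direction, since against WT cells with STAT5B it was 656 without WT library 3. Of the 171 genes, 160 were also called without WT library 3 and 157 without the third libraries.

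**Figure D1:**
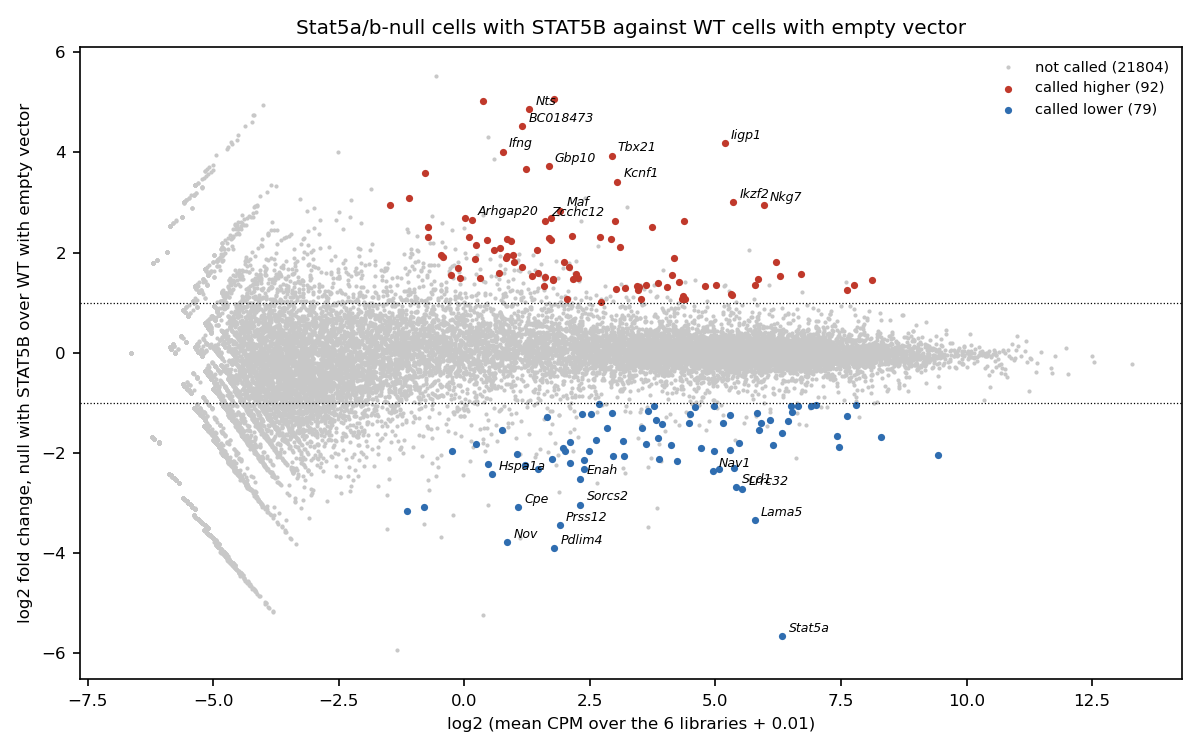
Log2 fold change of null cells with STAT5B over WT cells with the empty vector, against the log2 mean CPM over the 6 libraries, for the 21975 genes tested. Red points are the 92 genes called higher and blue points the 79 called lower; the dotted lines mark log2 fold changes of 1 and -1, and Stat5a is the lowest blue point.

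Few STAT5 target genes were still called below WT, but most estimates lay under the WT level, those of the best known targets among them. The list held 30 genes from textbook knowledge, chosen with earlier results of these data known. Of these 30, 2 were called lower (Pim1 and Socs2) and none higher, where 0.359% of all genes tested were called lower. Among genes of at least 1 CPM, 1.38% were called in either direction. The list had 22 estimates below 0 and a median log2 fold change of -0.47, beside -0.048 over all genes tested. In null cells with the empty vector 15 of the same 30 genes were called lower, with a median of -1.09, beside 2.13% of all genes tested. Against WT cells with STAT5B 6 were called lower, with a median of -0.68, beside 0.869% of all genes tested. In null cells with STAT5B, 9 of the 30, of which 29 averaged 1 CPM or more, had an interval within 1 log2 unit of WT. With the empty vector 6 of the 30 had such an interval. Over all genes of at least 1 CPM, 85.9% had one in null cells with STAT5B. By DESeq2 4 were called. Called lower were 6 without WT library 3 (Cish, Il2ra, Il4ra, Osm, Pim1 and Socs2), 5 with the third library of every group left out (Lta, Osm, Pim1, Socs2 and Socs3), and none without WT library 2 or without null library 3.

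Socs2, a feedback inhibitor of cytokine signalling (chr10:95385362-95417180), stood at 134, 129 and 84.1 CPM in the null libraries with STAT5B and at 299.8, 336 and 197 CPM in WT. All 3 null libraries lay below all 3 of WT, at 41.8% ± 9.95 of the WT mean (SD, n = 3, log2 fold change -1.26 ± 0.28 SE, adjusted p = 0.019). Null cells with the empty vector held 2.86, 5.45 and 7.25 CPM, so STAT5B raised Socs2 within the null background (log2 fold change 4.49 ± 0.33 SE, adjusted p = 6.9e-10) without bringing it to WT. Against WT cells with the STAT5B vector, at 383, 410.3 and 253 CPM, it was lower too (log2 fold change -1.59 ± 0.28 SE, adjusted p = 0.0014).

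Pim1, a serine/threonine kinase that promotes survival and growth (chr17:29490753-29496112), was the target farthest below WT. It stood at 78.2, 90.6 and 58.7 CPM against 297, 395 and 144 CPM in WT (log2 fold change -1.88 ± 0.40 SE, adjusted p = 0.014), and WT library 3 was the WT library nearest to the null ones. In null cells with the empty vector it was 16.9, 28.5 and 39.3 CPM, and the difference made by STAT5B there was not called (log2 fold change 1.43 ± 0.40 SE, adjusted p = 0.082). Same-numbered null libraries with and without STAT5B deviated together, and with the replicate number as a block in all 30 libraries the rise of Pim1 was called (1.34, adjusted p = 0.023). With a block for those 6 libraries alone it was not (1.49, adjusted p = 0.096). The call of Socs2 was lost on leaving out any 1 of null library 3 and WT libraries 1 and 2 (adjusted p up to 0.21), and that of Pim1 was lost on leaving out any 1 of null libraries 1 and 3 and WT libraries 1 and 2 (adjusted p up to 0.16).

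Cish, an inhibitor of the same pathway as Socs2 (chr9:107296026-107302784), reached 226, 220.1 and 158 CPM against 366, 526 and 298 CPM in WT and 10.2, 25.6 and 31.1 CPM in null cells with the empty vector. The groups did not overlap, at 50.8% ± 9.43 of the WT mean (SD, n = 3), but the difference missed the threshold (log2 fold change -0.98 ± 0.28 SE, adjusted p = 0.091) with a 95% interval of -1.54 to -0.41. STAT5B had raised it from the null level (log2 fold change 3.18 ± 0.30 SE, adjusted p = 1.8e-07). Il2ra, the IL-2 receptor alpha chain (chr2:11642807-11693193), stood at 1076, 890.2 and 719 CPM against 1864, 2033 and 1266 CPM in WT and 154, 191 and 268 CPM in null cells with the empty vector. It passed the p threshold but not the size threshold (log2 fold change -0.94 ± 0.23 SE, adjusted p = 0.036), and its 3 null libraries all lay below the 3 of WT. Il4ra, the IL-4 receptor alpha chain, was in the same position (log2 fold change -0.999 ± 0.17 SE, adjusted p = 0.0018), at 216, 193 and 160.3 CPM against 343, 480.5 and 315 CPM. Without WT library 3 all 3 of these genes were called lower, with log2 fold changes of -1.13 for Cish, -1.11 for Il2ra and -1.10 for Il4ra.

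**Figure D2:**
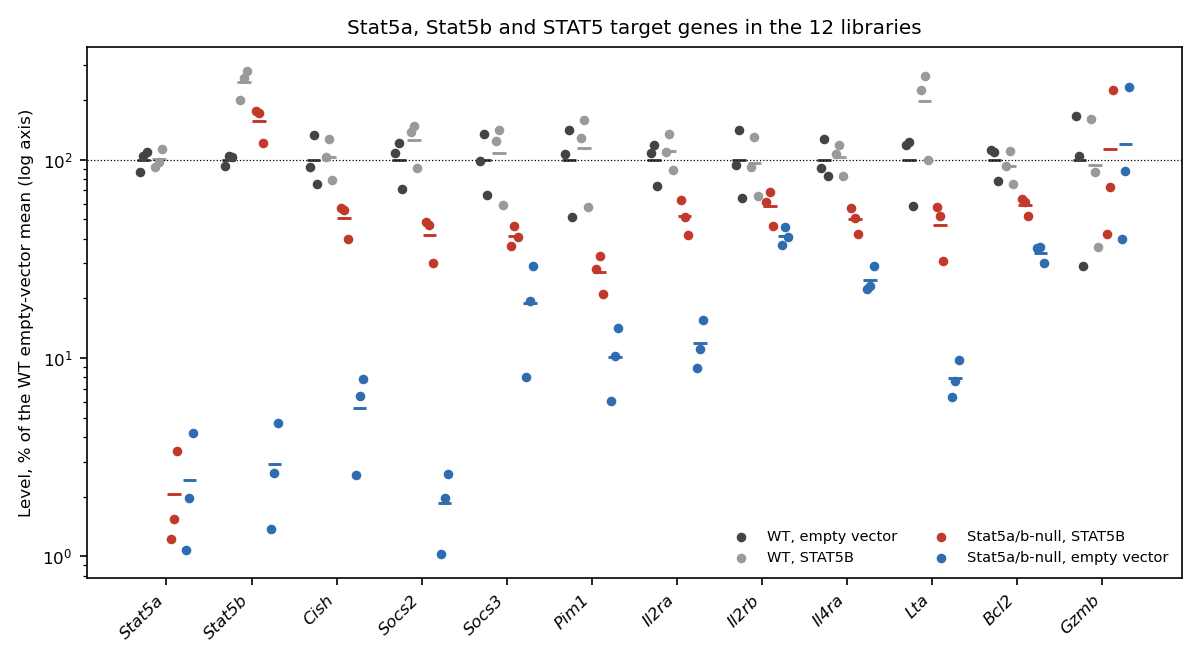
Levels of Stat5a, Stat5b and 10 STAT5 target genes in each library as a percentage of the mean of WT cells with the empty vector, on a log axis. Points are the 3 libraries of each of 4 groups and short lines their means; Stat5a is at the null level in both null groups, and Cish, Socs2 and Pim1 with STAT5B (red) lie between null cells with the empty vector (blue) and WT (dark grey).

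Other targets missed the threshold with estimates below WT and wide intervals. Lta, the cytokine lymphotoxin alpha, stood at 109, 97.7 and 58.0 CPM against 223, 230.5 and 109.5 CPM (log2 fold change -1.09 ± 0.42 SE, adjusted p = 0.33), and WT library 3 lay at the level of null library 1. Socs3 had a log2 fold change of -1.27 (adjusted p = 0.32), Osm, which encodes oncostatin M, -1.04 (adjusted p = 0.19), Socs1 -0.995 (adjusted p = 0.19) and Bcl2, which encodes a survival protein, -0.76 (adjusted p = 0.063). Akr1c18, an aldo-keto reductase, spanned 11.6, 18.0 and 9.24 CPM in the null libraries with STAT5B and 15.0, 20.5 and 53.1 CPM in WT, with null library 2 between WT libraries 1 and 2, against 0.275, 0.203 and 0.345 CPM in null cells with the empty vector, so STAT5B raised it (log2 fold change 5.57 ± 0.68 SE, adjusted p = 1.4e-05). Targets whose interval lay within 1 log2 unit of WT included the growth regulator Myc (-0.071), the D-type cyclin Ccnd2 (0.014), the survival genes Mcl1 (0.18) and Bcl2l1 (0.29), the inhibitory receptor Ctla4 (-0.13) and the costimulatory receptors Tnfrsf4 (-0.25) and Tnfrsf18 (-0.26), each value a log2 fold change against WT. Within null cells none of these had a called change by STAT5B (log2 fold changes from -0.036 for Mcl1 to 0.77 for Myc). They are thus not genes shown to be restored. Gzmb, which encodes granzyme B, could not be placed: it ran from 10.9 to 57.6 CPM in the null libraries with STAT5B and from 7.51 to 42.9 CPM in WT. Irf8, an interferon regulatory factor, stood at 81.9, 95.8 and 113 CPM against 55.9, 40.3 and 17.6 CPM, with no overlap, and was not called (log2 fold change 1.35 ± 0.52 SE, adjusted p = 0.33). In the fit of only the 6 libraries compared it was called higher (1.35, adjusted p = 0.047).

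**Figure D3:**
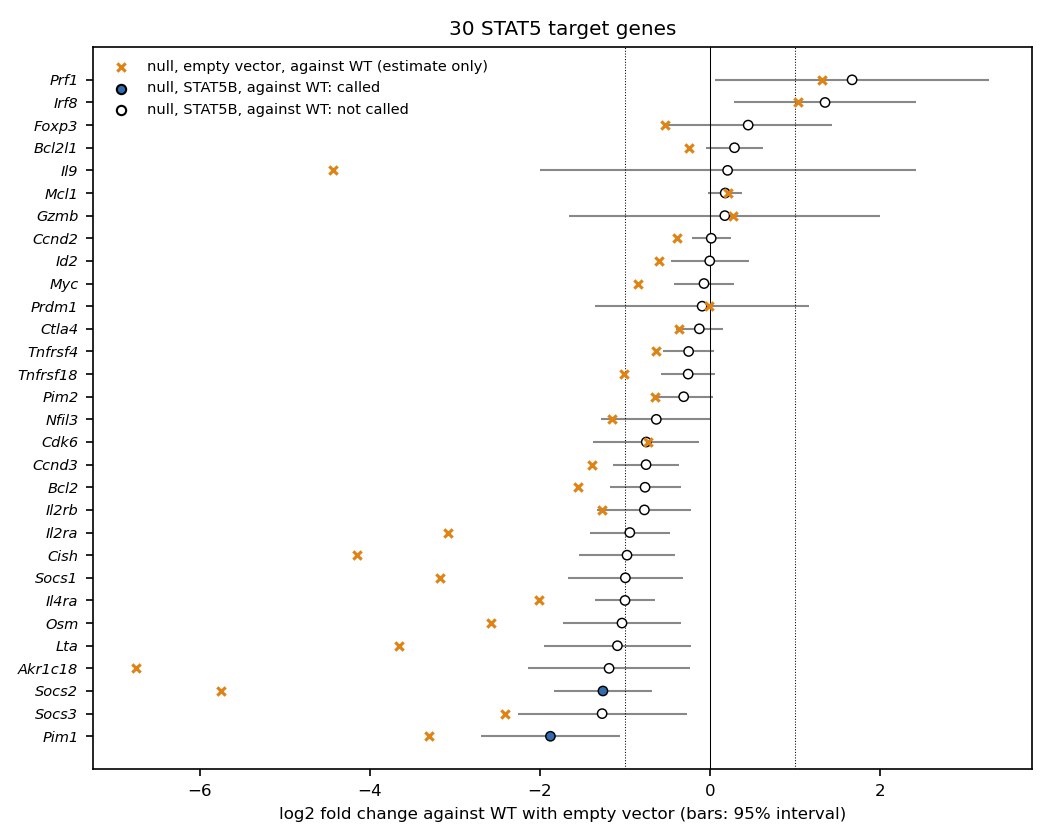
Log2 fold change against WT cells with the empty vector of the 30 STAT5 target genes, with 95% intervals, for null cells with STAT5B (circles, filled where called) and, as estimates only, for null cells with the empty vector (crosses). Pim1 and Socs2 are the filled circles, and the circles of Cish, Socs1, Il4ra and Il2ra sit close to -1.

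None of the 8 receptors of the common gamma chain family was called by edgeR (4 at an unadjusted p under 0.05, 2 by DESeq2, and 3 by edgeR without WT library 3), against 4 called lower in null cells with the empty vector, and the median log2 fold change was -0.53. The shared chain itself, Il2rg, had an interval within 1 log2 unit of WT (0.059, interval -0.20 to 0.31). Il7r, the IL-7 receptor alpha chain, had the lowest estimate: 21.2, 18.3 and 18.8 CPM in the null libraries with STAT5B, 89.3, 76.0 and 28.7 CPM in WT and 16.02, 21.6 and 13.2 CPM in null cells with the empty vector. Its groups did not overlap, WT library 3 was nearest to the null libraries, and the difference missed the threshold (log2 fold change -1.73 ± 0.49 SE, adjusted p = 0.087). It was called lower without WT library 3 (log2 fold change -2.07, adjusted p = 0.020). The same held by DESeq2 (-1.75, adjusted p = 0.028), in the fit of only the 6 libraries (-1.74, adjusted p = 0.013), with the factor of unwanted variation (-1.73, adjusted p = 0.033). It held too with the sex covariate (-1.19, adjusted p = 0.024), with the replicate block (-1.57, adjusted p = 0.0038), with the third libraries left out (-2.04, adjusted p = 2.1e-06) and against WT cells with STAT5B (log2 fold change -2.003 ± 0.49 SE, adjusted p = 0.022). STAT5B did not detectably raise it within the null background (log2 fold change 0.20 ± 0.48 SE, adjusted p = 0.94).

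Among the genes that were called above WT were the interferon gamma gene, its transcription factor and several GTPases that interferon gamma induces. Ifng itself (chr10:118441046-118445892) was low in every library: 1.55, 4.74 and 3.25 CPM in the null libraries with STAT5B, from 59, 218 and 82 reads, against 0.258, 0.141 and 0.189 CPM in WT, from 9, 6 and 9 reads. The groups did not overlap, which the rule that named Ifng required (log2 fold change 4.02 ± 0.74 SE, adjusted p = 0.0035). With the empty vector, null cells held 0.770, 2.23 and 3.24 CPM. The call was lost on leaving out WT library 2 (adjusted p = 0.055). Tbx21, the T helper 1 factor T-bet (chr11:97098071-97115331), stood at 6.39, 14.0 and 22.5 CPM against 1.20, 0.915 and 0.694 CPM in WT (log2 fold change 3.94 ± 0.68 SE, adjusted p = 0.0017). Null cells with the empty vector, at 4.34, 9.80 and 24.6 CPM, covered the same range, and STAT5B did not detectably lower it (log2 fold change 0.15 ± 0.58 SE, adjusted p = 0.98). It was higher than in WT cells with STAT5B as well (log2 fold change 3.72 ± 0.67 SE, adjusted p = 0.0017).

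Iigp1, an immunity-related GTPase, stood at 28.6, 62.3 and 116 CPM against 4.21, 4.86 and 2.31 CPM in WT (log2 fold change 4.19 ± 0.67 SE, adjusted p = 8.1e-04), and at 53.6, 90.9 and 167 CPM in null cells with the empty vector. Gbp6, a guanylate-binding protein gene (chr5:105270702-105293698), stood at 18.4, 33.0 and 55.3 CPM against 6.30, 6.01 and 5.03 CPM (log2 fold change 2.62 ± 0.51 SE, adjusted p = 0.0059). Gbp10 (chr5:105215699-105239533) stood at 2.08, 4.50 and 11.3 CPM against 0.544, 0.258 and 0.526 CPM (log2 fold change 3.73 ± 0.83 SE, adjusted p = 0.019). Gbp6 and Gbp10 belong to a cluster of similar genes on chromosome 5, so the division of reads between them is uncertain. Irf1, a transcription factor induced by interferon gamma (chr11:53770014-53778374), stood at 62.6, 120.4 and 160.2 CPM against 26.2, 37.8 and 34.1 CPM (log2 fold change 1.80 ± 0.40 SE, adjusted p = 0.019). In each of these 4 genes null library 1 was the lowest and null library 3 the highest of the libraries with STAT5B. No null library overlapped WT in any of them, which the naming rule required of Iigp1 and Gbp10. With the empty vector, null cells held 31.4, 45.5 and 78.3 CPM of Gbp6 and 5.91, 10.3 and 22.6 CPM of Gbp10. For Irf1 they held 95.8, 147 and 208 CPM. The calls of Gbp10 and Irf1 were lost on leaving out null library 3, WT library 1 or WT library 2 (adjusted p up to 0.19 and 0.18), and that of Gbp6 was lost on leaving out any 1 of null library 3 and WT library 2 (adjusted p up to 0.066). That of Iigp1 held with every library left out in turn.

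Of the 38 genes of the interferon-induced list, 4 were called higher, Iigp1, Gbp6 and Irf1 among them, and none lower. Of all genes tested, 0.419% were called higher and 0.359% lower. The median log2 fold change of the list was 0.14, with 23 estimates above 0 and 15 below. Some genes known as targets of type I interferon were not called: Isg15 had a log2 fold change of -0.21, Ifit1 -0.66, Ifit3 -1.004, Mx1 -0.80, Oas3 -1.36 and Irf7 -0.43. These examples were chosen after their values were seen and do not stand for the list, most of which lay above 0. Other guanylate-binding protein genes were not called either, among them Gbp2 (1.42, adjusted p = 0.12), Gbp4 (0.96, adjusted p = 0.095) and Gbp3 (0.73, adjusted p = 0.045), whose size was under the threshold. Without WT library 3 the count was 4 higher and 2 lower (Isg20 and Oas3), with the third libraries left out it was 5 higher and 2 lower, and without WT library 2 or null library 3 it was 1 higher, Iigp1.

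**Figure D4:**
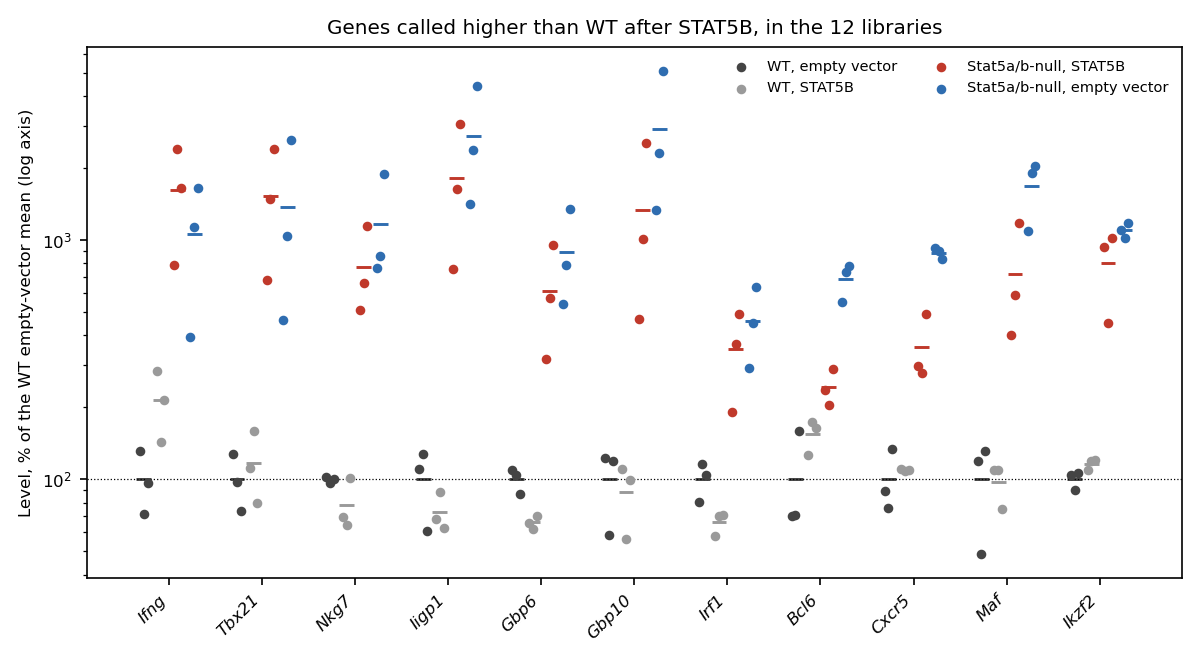
Levels of 11 genes called higher than WT after STAT5B, in each library as a percentage of the mean of WT cells with the empty vector, on a log axis, with the same 4 groups and colours as the plot of STAT5 targets. In every gene the 3 null libraries with STAT5B lie above the 3 WT libraries with the empty vector. The naming rule required this of Ifng, Tbx21, Nkg7, Iigp1, Gbp10, Maf and Ikzf2. Bcl6 and Cxcr5 lie between WT and null cells with the empty vector.

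Lineage-defining factors were called in 1 direction only: 4 of 24 were higher than WT (Tbx21, Ikzf2, Maf and Bcl6) and none lower. Of all genes tested, 0.419% were called higher and 0.359% lower. The median of the lineage list was 0.39. Without WT library 3, and with the third libraries left out, 4 were again higher, and without WT library 2 or null library 3 it was 2, Ikzf2 and Tbx21. Ikzf2, which encodes Helios, a factor of regulatory T cells and of some activated cells (chr1:69531214-69687245), had the smallest adjusted p of the 92 genes called higher. It stood at 84.3, 40.8 and 92.3 CPM against 9.39, 8.12 and 9.59 CPM in WT (log2 fold change 3.002 ± 0.26 SE, adjusted p = 3.3e-08) and at 99.6, 92.0 and 107 CPM in null cells with the empty vector. Foxp3, the master factor of regulatory T cells, stood at 11.3, 14.3 and 8.84 CPM against 9.87, 9.90 and 5.55 CPM and was not called (log2 fold change 0.45 ± 0.48 SE, adjusted p = 0.87). Maf, which encodes c-Maf, a factor of follicular and IL-10-producing cells (chr8:115682942-115707794), stood at 3.65, 5.39 and 10.7 CPM against 1.09, 0.446 and 1.20 CPM (log2 fold change 2.84 ± 0.55 SE, adjusted p = 0.0057), with 10.0043, 17.4 and 18.6 CPM in null cells with the empty vector, a call lost on leaving out any 1 of null library 3 and WT library 2 (adjusted p up to 0.092).

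Bcl6 (chr16:23965052-23988852) and Cxcr5, the receptor that leads follicular helper cells to B cell follicles, were lowered by STAT5B but not down to WT. Bcl6 stood at 11.1, 9.63 and 13.6 CPM against 3.29, 3.33 and 7.49 CPM in WT (log2 fold change 1.27 ± 0.30 SE, adjusted p = 0.028), and 25.9, 34.7 and 36.6 CPM in null cells with the empty vector, from which STAT5B lowered it (log2 fold change -1.501 ± 0.29 SE, adjusted p = 0.0084). WT library 3 was the WT library nearest to the null ones, and against WT cells with STAT5B, at 5.93, 8.19 and 7.69 CPM, the difference was not called (log2 fold change 0.65 ± 0.29 SE, adjusted p = 0.32). The call against the empty vector was lost on leaving out any 1 of null libraries 1 and 3 and WT libraries 1 and 2 (adjusted p up to 0.28), and in a fit of only the 6 libraries compared (adjusted p = 0.054). Cxcr5 stood at 2.58, 2.41 and 4.24 CPM against 0.773, 0.657 and 1.16 CPM in WT (log2 fold change 1.81 ± 0.29 SE, adjusted p = 9.1e-04) and 7.97, 7.80 and 7.21 CPM in null cells with the empty vector (log2 fold change -1.33 ± 0.28 SE, adjusted p = 0.015 for the change made by STAT5B). It was called with every library left out in turn. These were the 2 of 18 follicular helper genes called (3 higher and 1 lower without WT library 3, 5 and 1 with the third libraries left out), against 7 called higher and 1 lower in null cells with the empty vector. Among all genes tested, 0.419% were called higher with STAT5B and 2.55% with the empty vector. The list's median was 0.55 with STAT5B and 1.07 without it. The inhibitory receptor gene Pdcd1 had 0.78 (adjusted p = 0.056) and Tox 0.54 (adjusted p = 0.045, size under the threshold).

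Nkg7, which encodes a protein of cytotoxic granules (chr7:43437073-43438249), was the 1 of 23 cytotoxic genes called, at 73.2, 94.4 and 164 CPM against 14.6, 13.8 and 14.4 CPM in WT (log2 fold change 2.95 ± 0.42 SE, adjusted p = 2.8e-04) and 109, 122 and 269 CPM in null cells with the empty vector. The granule genes Prf1 (1.67, adjusted p = 0.50) and Ctsw (2.13, adjusted p = 0.22) had estimates above WT and were not called. Ifng was the 1 of 23 helper cytokine genes called. The cytotoxic and helper cytokine lists thus each had 1 call in 23, beside 0.778% of all genes tested. Tnf passed the p threshold with a size under the other (-0.95, adjusted p = 0.0071), and Il2 had 1.10 (adjusted p = 0.68). Il4 and Il13 averaged at most 1 CPM and could not be placed, with Il13 at -1.14 (adjusted p = 0.68).

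The promoters of these genes were searched for the STAT core motif TTCNNNGAA, which reads the same on both strands, in RefSeq windows from 250 bases before to 50 bases after a gene's start (GRCm38.p6, the same build as mm10, first window listed per gene). A window was found for 16149 of the 21975 genes tested, and 1292 of them held the motif (8.0%). Of the genes called higher, 60 had a window and 8 of those held it (13.3%), while 3 of the 55 genes called lower with a window held it (5.45%). The 4 named genes called higher whose window holds it upstream of the start are shown, 5′ to 3′ on the gene's strand, with the motif in capitals and up to 10 bases on either side.
Ifng, chr10:118440796-118440815, plus strand: tTTCAGAGAAtcccacaaga
Nkg7, chr7:43436908-43436936, plus strand: ccccaaggtcTTCCAGGAAaccagttgtc
Bcl6, chr16:23988952-23988980, minus strand: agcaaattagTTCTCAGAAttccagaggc
Irf1, chr11:53769914-53769942, plus strand: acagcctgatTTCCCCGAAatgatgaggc
The site begins 249 bases upstream of the RefSeq start of the window in Ifng, 220 in Nkg7, 118 in Bcl6 and 90 in Irf1. For Nkg7 that start lies inside the gene span given above, so the site is nearer to the first base of the span. These are matches of letters, and no binding data were used.

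The other genes with the largest differences above WT were less tied to helper T cell lists. Nts, which encodes the peptide neurotensin (chr10:102481756-102490486), stood at 1.58, 4.83 and 7.73 CPM against 0.114, 0.0469 and 0.295 CPM (log2 fold change 4.87 ± 0.83 SE, adjusted p = 0.0016), where the WT values rest on 4, 2 and 14 reads. BC018473 (chr11:116752167-116759373), annotated as antisense, stood at 5.86, 3.28 and 3.53 CPM against 0.372, 0.0235 and 0.168 CPM (log2 fold change 4.52 ± 0.63 SE, adjusted p = 1.6e-04). Whether reads were counted by strand is not stated, so its reads cannot be told from those of the gene it overlaps. It was higher with STAT5B than the 2.06, 1.30 and 0.966 CPM of null cells with the empty vector, by an amount that was not called (log2 fold change 1.54 ± 0.52 SE, adjusted p = 0.17, or 0.046 with a replicate block in all 30 libraries, which calls it, and 0.17 with a block for the 6 null libraries). Kcnf1, a modifier subunit of potassium channels (chr12:17172100-17176888), stood at 15.3, 8.13 and 21.7 CPM against 1.29, 1.501 and 1.41 CPM (log2 fold change 3.42 ± 0.54 SE, adjusted p = 7.9e-04). Zcchc12 (chrX:36195904-36199158) stood at 5.20, 5.65 and 4.88 CPM against 0.458, 0.962 and 1.07 CPM (log2 fold change 2.64 ± 0.44 SE, adjusted p = 0.0014), and Arhgap20, a GTPase-activating protein gene (chr9:51765337-51853856), at 2.23, 1.46 and 2.02 CPM against 0.0858, 0.235 and 0.547 CPM (log2 fold change 2.66 ± 0.47 SE, adjusted p = 0.0023). In all 5 the groups did not overlap, which the rule that named them required, and each call held with every library left out in turn. Null cells with the empty vector overlapped those with STAT5B for Nts (2.28, 4.75 and 13.6 CPM), Kcnf1 (14.6, 10.2 and 28.7 CPM) and Zcchc12 (5.39, 4.43 and 2.90 CPM). For Arhgap20 they held 4.70, 4.23 and 3.21 CPM, and its change by STAT5B was not called (log2 fold change -1.09 ± 0.42 SE, adjusted p = 0.25).

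Among the genes called lower than WT, some showed no called change from the null level by STAT5B and others a called rise that stopped short of WT. Pdlim4, which encodes an actin-associated PDZ and LIM protein (chr11:54054928-54069014), was one of the former: 0.237, 0.630 and 0.397 CPM with STAT5B, 0.330, 0.493 and 0.311 CPM with the empty vector and 5.49, 11.6 and 2.25 CPM in WT (log2 fold change -3.90 ± 0.64 SE, adjusted p = 0.0011), with no detectable change by STAT5B (log2 fold change 0.17 ± 0.69 SE, adjusted p = 0.98). Prss12, a secreted serine protease gene (chr3:123446913-123506597), stood at 0.394, 1.13 and 0.278 CPM against 6.78, 9.38 and 4.33 CPM in WT (log2 fold change -3.43 ± 0.51 SE, adjusted p = 4.3e-04) and 0.330, 0.522 and 0.414 CPM with the empty vector. Cpe, which encodes the prohormone-processing carboxypeptidase E (chr8:64592542-64693054), stood at 0.289, 0.609 and 0.397 CPM against 3.72, 5.89 and 1.64 CPM in WT (log2 fold change -3.09 ± 0.54 SE, adjusted p = 0.0018) and 0.137, 0.725 and 0.345 CPM with the empty vector. In all 3 WT library 3 was the lowest of the WT libraries and still above every null library, which the naming rule required. In Prss12 and Cpe, too, the change made by STAT5B was not called (log2 fold changes 0.58 and 0.12). The intervals of the changes by STAT5B in the 3 genes reached 1.58, 1.73 and 1.33, so a rise of up to that size cannot be told from none.

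Nav1, which encodes the microtubule-associated neuron navigator 1 (chr1:135434580-135607295), was one of the latter. It stood at 0.137, 0.232 and 0.587 CPM in null cells with the empty vector, at 13.7, 11.5 and 4.52 CPM with STAT5B (log2 fold change 5.03 ± 0.54 SE, adjusted p = 1.5e-06) and at 64.0, 45.3 and 45.9 CPM in WT, 19.2% ± 9.29 of the WT mean (SD, n = 3, log2 fold change -2.37 ± 0.38 SE, adjusted p = 8.3e-04). Lama5, the laminin alpha 5 chain (chr2:180176373-180225859), stood at 0.880, 1.51 and 2.21, then 11.8, 12.2 and 5.31, against 153, 78.9 and 69.3 CPM in WT (log2 fold change -3.34 ± 0.61 SE, adjusted p = 0.003), with a called rise by STAT5B (log2 fold change 2.71 ± 0.67 SE, adjusted p = 0.046, and 0.082, not called, with a replicate block for the 6 null libraries). Lrrc32, which encodes GARP, the surface anchor of latent TGF-beta on regulatory T cells (chr7:98489283-98502181), stood at 1.54, 2.38 and 4.69, then 15.9, 13.3 and 7.18, against 82.1, 116 and 44.4 CPM in WT (log2 fold change -2.73 ± 0.45 SE, adjusted p = 1.0e-03), again with a called rise (log2 fold change 2.11 ± 0.47 SE, adjusted p = 0.025). In these 3 genes no null library reached any WT library, which the naming rule required. In each, null library 3 was the lowest of the libraries with STAT5B, and the calls against WT held with every library left out in turn.

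The remaining genes among the 12 with the largest differences below WT were Nov (log2 fold change -3.77), a secreted matricellular protein, Sorcs2 (-3.03), a receptor of the sortilin family, Scd1 (-2.68), Enah (-2.51), an actin regulator, and Hspa1a (-2.42), beside Stat5a. The call of Nov was lost on leaving out any 1 of null libraries 1 and 3 and WT libraries 1 and 2 (adjusted p up to 0.14). That of Enah was lost on leaving out any 1 of null library 3 and WT library 2 (adjusted p up to 0.079). That of Sorcs2 held with every library left out in turn. Scd1, the desaturase that makes monounsaturated fatty acids (chr19:44394455-44407879), stood at 15.8, 8.499 and 9.88 CPM against 115, 83.9 and 21.6 CPM. WT library 3 was far below the other WT libraries there, and the call (adjusted p = 0.047) was lost under RLE factors, under library totals, with the sex-linked covariate and without any 1 library other than WT library 3 (adjusted p up to 0.29). Hspa1a and Hspa1b, near-identical heat shock genes whose reads are hard to divide, were both called lower (-2.42 and -2.24) at 0.710, 0.370 and 0.278 CPM against 3.15, 2.21 and 2.06 CPM for Hspa1a. The call of Hspa1a was lost on leaving out any 1 of null libraries 2 and 3 and WT libraries 1 and 2 (adjusted p up to 0.20), and that of Hspa1b was lost on leaving out any 1 of null libraries 1, 2 and 3 and WT libraries 1 and 2 (adjusted p up to 0.15). They were the 2 of 20 immediate early and stress genes called; Fos (-0.84), Egr1 (0.44) and Nr4a1 (0.20) were not.

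Thy1, the glycoprotein CD90 of the T cell surface, was the 1 of 14 T cell markers called. It stood at 254, 349.5 and 205 CPM against 1079.9, 1584 and 647 CPM in WT, 24.4% ± 6.66 of the WT mean (SD, n = 3, log2 fold change -2.03 ± 0.30 SE, adjusted p = 3.5e-04), and at 153, 165 and 118 CPM in null cells with the empty vector. The call held with every library left out in turn. Cd4 (0.12), Cd3e (0.34) and Lck (-0.097) were not called. Of 18 regulatory T cell genes, Ikzf2 was called higher and Lrrc32 lower, with a median of -0.14.

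Genes of naive cells and of migration moved in both directions. Of 20 naive and quiescence genes 1 was called higher and 2 lower, beside 0.419% and 0.359% of all genes tested, with a median of 0.19. Without WT library 3, and with the third libraries left out, it was 1 higher and 5 lower. Il7r and S1pr1 were among those 5 beside Dapl1 and Igfbp4. Actn1, which encodes alpha-actinin 1, stood at 155, 124 and 191 CPM against 48.4, 43.8 and 65.9 CPM (log2 fold change 1.57 ± 0.25 SE, adjusted p = 7.9e-04). Igfbp4, an insulin-like growth factor binding protein gene, stood at 129, 214 and 107 CPM against 408, 693 and 344 CPM (log2 fold change -1.68 ± 0.33 SE, adjusted p = 0.0059) and was raised by STAT5B from 23.0, 46.3 and 25.5 CPM (log2 fold change 2.25 ± 0.34 SE, adjusted p = 3.6e-04). Against WT cells with the STAT5B vector, at 217, 281 and 192 CPM, its difference was not called (log2 fold change -0.61 ± 0.32 SE, adjusted p = 0.43). The call against the empty vector was lost on leaving out any 1 of null libraries 1 and 3 and WT library 2 (adjusted p up to 0.11). Dapl1, a gene of naive T cells, stood at 31.9, 53.2 and 62.7 CPM against 130.4, 158 and 89.8 CPM (log2 fold change -1.36 ± 0.30 SE, adjusted p = 0.019), below the 69.6, 78.5 and 72.5 CPM of null cells with the empty vector by an amount that was not called (log2 fold change -0.58 ± 0.30 SE, adjusted p = 0.44). Against WT cells with the STAT5B vector, at 90.0, 83.0 and 80.5 CPM, Dapl1 was not called (log2 fold change -0.78 ± 0.30 SE, adjusted p = 0.20). Its call against the empty vector was lost on leaving out any 1 of null libraries 1 and 2 and WT libraries 1 and 2 (adjusted p up to 0.18). Ccr7, the receptor that leads naive T cells into lymph nodes, had a log2 fold change of 0.75 (adjusted p = 0.17).

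Of 19 chemokine receptor genes 2 were called higher and 1 lower (4 and 2 without WT library 3), beside 0.419% and 0.359% of all genes tested. Cxcr6 stood at 3.29, 2.85 and 5.27 CPM against 1.09, 1.48 and 1.33 CPM (log2 fold change 1.54 ± 0.36 SE, adjusted p = 0.027), Cxcr5 is described above, and Ccr4, a receptor of T helper 2 and regulatory cells, stood at 109, 70.1 and 72.5 CPM against 168, 188 and 165 CPM (log2 fold change -1.05 ± 0.20 SE, adjusted p = 0.0057), having been raised from 45.2, 42.1 and 23.0 CPM by STAT5B (log2 fold change 1.19 ± 0.21 SE, adjusted p = 0.0023). The call of Cxcr6 was lost on leaving out any 1 of null library 3 and WT libraries 1 and 2 (adjusted p up to 0.25), and that of Ccr4 was lost on leaving out any 1 of null libraries 2 and 3 and WT library 2 (adjusted p up to 0.066). Cd160 was the 1 of 20 checkpoint and costimulatory receptors called, at 21.7, 26.9 and 29.9 CPM against 6.38, 9.48 and 10.8 CPM (log2 fold change 1.55 ± 0.35 SE, adjusted p = 0.022), a call lost on leaving out any 1 of null libraries 2 and 3 and WT libraries 1 and 2 (adjusted p up to 0.20).

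Cd74, the invariant chain of MHC class II, was the 1 of 19 myeloid and dendritic markers called, at 108, 98.8 and 139.5 CPM against 28.6, 38.4 and 52.0 CPM (log2 fold change 1.54 ± 0.23 SE, adjusted p = 3.5e-04). Cd74 is also expressed in activated T cells. The summed level of that list ran from 135 to 182 CPM in the null libraries with STAT5B and from 96.6 to 114.1 CPM in WT. Most of the sum in the null libraries was Cd74. The list as a whole was not raised: its median log2 fold change was -0.38, with 13 estimates below 0 and 6 above. Of its 19 genes 5 averaged 1 CPM or more over the 6 libraries: Cd74, the class II gene H2-Ab1 (44.0 CPM), Cd68 (2.99 CPM), Zbtb46 (2.48 CPM) and Itgam (1.28 CPM). Among the other defining myeloid members Adgre1 averaged 0.418 CPM, Csf1r 0.179 CPM, and Lyz2, Cd14, S100a8, S100a9, Mpo and Elane at most 0.081 CPM each. The summed level of Cd8a and Cd8b1 was 11.1 to 13.1 CPM against 6.29 to 7.62 CPM in WT, with Cd8b1 at 0.75 (adjusted p = 0.067) and Cd8a near 0 in every library; the part of such cells in the results was not tested.

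No gene of the cell cycle or of nutrient use was called, and their share within 1 log2 unit of WT was near the 85.9% of all genes of at least 1 CPM. Of 38 cell cycle genes none was called by edgeR (11 at an unadjusted p under 0.05, none by DESeq2), and 34 had an interval within 1 log2 unit of WT. Over all genes, 2095 of 21975 had an unadjusted p under 0.05 in the edgeR fit. The cell cycle list was nonetheless shifted a little below WT, with a median of -0.18 and 33 estimates below 0. Its summed level ran from 10175 to 11470 CPM in the null libraries with STAT5B and from 11562 to 14447 CPM in WT, with no overlap. Mki67 had -0.43, Top2a -0.37 and Ccnd3 -0.75 (adjusted p = 0.047, size under the threshold). Of 30 genes of glycolysis and nutrient transport none was called by edgeR (1 at an unadjusted p under 0.05, none by DESeq2) and 24 had such an interval, with a median of -0.18. The amino acid transporter genes Slc3a2 (119.6, 125 and 122 CPM against 109, 132 and 101 CPM) and Slc7a5 (168, 161 and 122 CPM against 142, 199 and 130.4 CPM) had intervals of -0.14 to 0.34 and -0.48 to 0.36. All 27 genes of sterol and fatty acid synthesis had estimates below WT, with a median of -0.45; Scd1 was the 1 called, and Mvd, of the mevalonate pathway, passed the p threshold only (-0.86, adjusted p = 0.043). In null cells with the empty vector 8 of the 27 were called lower, beside 2.13% of all genes tested, with a median of -0.74. None of 18 BCL2 family genes, none of 10 Akr1c genes and none of 6 sex-linked genes was called by edgeR or DESeq2 (4, 1 and 0 at an unadjusted p under 0.05), and Akr1c12 and Akr1c13, which share much of their sequence, had -0.34 and -0.017 where null cells with the empty vector had -3.35 and -2.10. Without WT library 3 the sterol and fatty acid genes called lower were 4, with Elovl6, Fdps and Mvd beside Scd1.

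**Figure D5:**
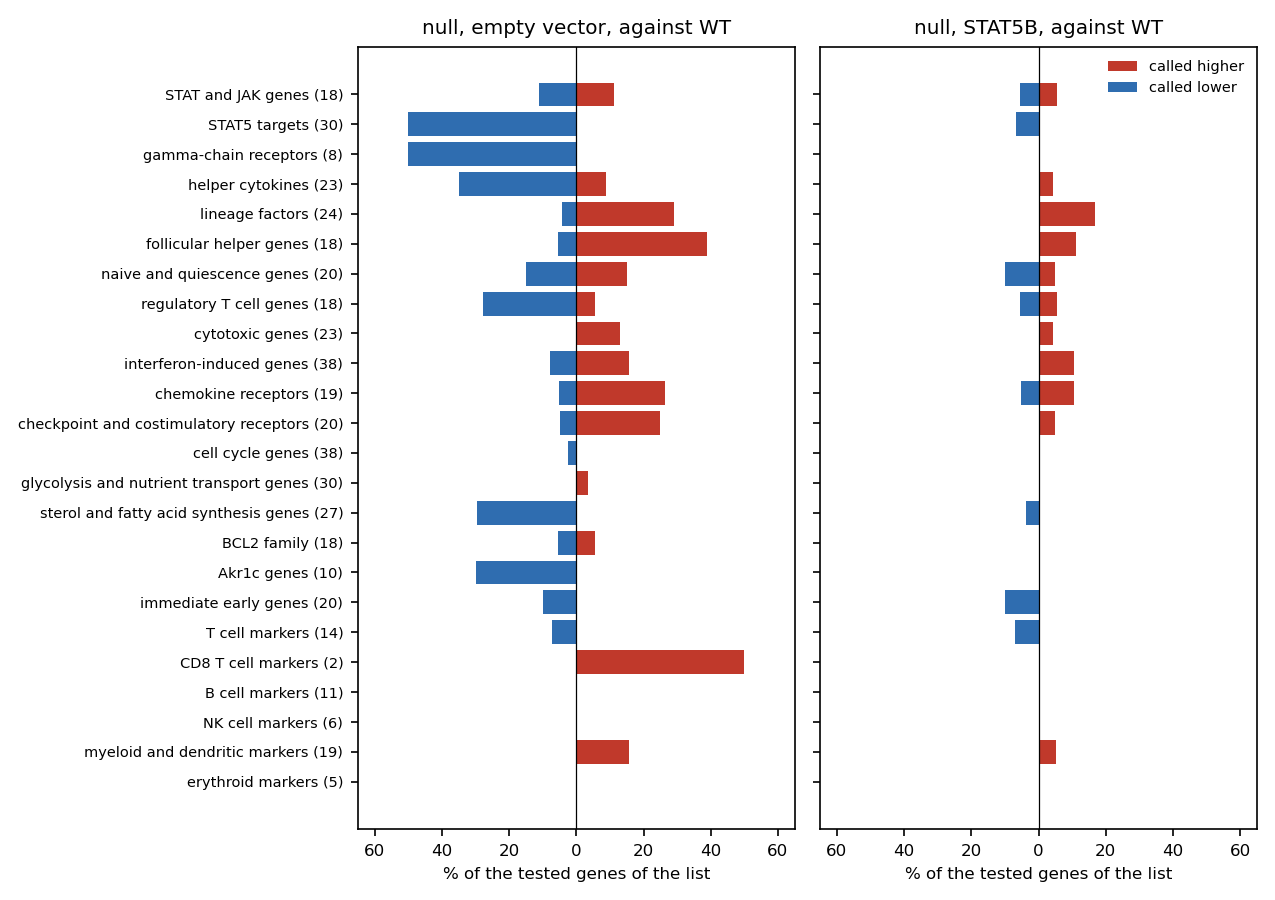
Share of the tested genes of each list called higher (red, to the right) or lower (blue, to the left) than WT cells with the empty vector, in null cells with the empty vector (left panel) and in null cells with STAT5B (right panel), with the number of tested genes in brackets. The 2 panels share the WT libraries. STAT5 targets go from 15 called lower to 2, where all genes tested go from 2.13% to 0.359%. Lineage factors go from 7 called higher to 4, where all genes tested go from 2.55% to 0.419%. A fall in calls does not show that a gene was restored.

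Stat5a and Stat5b share a locus on chromosome 11, so the genes around the deleted stretch were read as well. None of the 10 nearest tested genes on either side was called by edgeR (2 at an unadjusted p under 0.05), Stat3 included, the next gene above Stat5a, at a log2 fold change of 0.47 (adjusted p = 0.22). Within 5 Mb on either side 4 of 269 tested genes were called (1.49%, beside 0.778% of all genes tested): Tbx21 higher, and Hap1, Igfbp4 and Itgb3 lower. Among STAT and JAK pathway genes, the phosphatase gene Ptpn11 passed the p threshold only (0.80, adjusted p = 0.028), and Stat6, Jak1 and Jak3 had log2 fold changes of -0.018, 0.0086 and 0.071.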

How the data were processed

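RNA-seq was analysed from 30 libraries of CD4+ T cells in 10 groups of 3. The deposited values were raw read counts per gene for 24421 genes: per the labels and the study's methods the authors made stranded, ribosome-depleted total RNA libraries, trimmed reads with Trimmomatic 0.36, aligned them to mm10 with STAR and counted them with HTSeq 0.9.1, the strand setting of the counting not being stated. The 5 closing lines of each file name no gene and were left out. In the 6 libraries compared, 28.8 to 34.7% of reads had no gene.

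Genes with at least 10 reads in all were kept (21975), scaled by TMM and fitted with edgeR 4.0.16 (quasi-likelihood, R 4.3.3), 1 coefficient per group, with Benjamini-Hochberg adjusted p-values across those genes. The study itself tested with DESeq2 and a log2 fold change beyond 1, and the same threshold was used. DESeq2 1.42.0 was an alternative, beside other scalings, filters, a replicate block, a factor of unwanted variation, a fit of the 6 libraries alone and leaving out each library. CPM were computed after TMM. The fit was tested on simulated data. For STAT5B against the empty vector within null cells, deviations from the group means of same-numbered libraries correlated at 0.17, 0.30 and 0.42, so these were taken as paired from the data, the labels naming no shared mouse or batch, and blocked fits were added after seeing the data. No pair of libraries of a group matched within counting noise (chi-square per degree of freedom at least 29.98).

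The comparison and the gene lists were chosen with earlier results of these data known. Genes were named by rule: those the study names for CD4+ T cells, up to 12 called in each direction with the largest fold change, a mean of at least 1 CPM, no overlap between the groups and no predicted-gene symbol, up to 4 called members of each list, all STAT5 targets and gamma chain receptors where the text turns on them, and called neighbours of the locus. Lack of overlap was thus fixed in advance for the genes named by largest fold change. Of all 171 called genes, 1 overlapped between the groups. Other list members are given as examples, chosen after their values were seen. The other 31 libraries of the series, labelled as spleen or T cells from spleen, were not used. A few genes that the rule or the lists hold are not reported here.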

Additional observations from a re-analysis of the deposited data

How the results depend on the processing

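The number of genes called between null cells with STAT5B and WT cells with the empty vector, 171, was within 1.5 times of itself under RLE factors, library totals, other filters, the factor of unwanted variation, the fit of only the 6 libraries, no fold minimum and the sex covariate (152 to 251). It was 301 by DESeq2 and 489 with the third library of every group left out. With single libraries left out it ran from 57 (without WT library 2) to 306 (without WT library 3), and it also moved by over 1.5 times without WT library 1 (85), null library 3 (72) and null library 1 (113). For null cells with the empty vector against WT, 1029, it was 3052 with no fold minimum and ran from 658 (without WT library 2) to 1216 with a library left out. Against WT cells with STAT5B, 377, it was 609 with no fold minimum, 841 without the third libraries, and 136 (without WT library 2) to 656 (without WT library 3) with a library left out, with 152 without WT library 1, 158 without null library 3 and 239 without null library 1. The causes were not tested. The third-library and sex settings were chosen after seeing the data.

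The replicate block gave 394 genes, all 171 among them, for the first comparison and 644 for the third. Same-numbered libraries of the first comparison had deviations correlated at -0.038, 0.46 and 0.098, and nothing in the labels pairs them, so across backgrounds they share only a number. Within null cells, where same-numbered libraries did deviate together, STAT5B against the empty vector gave 72 called genes with no block, 68 with a replicate block for those 6 libraries and 137 with the block in all 30. The changes by STAT5B named in the report kept their call under both blocks other than those of Pim1, BC018473 and Lama5.

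Genes with an interval within 1 log2 unit of WT numbered 9171 to 10020 under the alternatives where they were counted. They were not counted by DESeq2, with the sex covariate or with the third libraries left out. Under RLE factors, library totals and with each of the 6 libraries left out, Stat5b stood at 147 to 172% of WT and Stat5a at 1.38 to 2.48%. No named gene changed direction while called. Of 40 named genes called, 21 held with each of the 6 libraries left out and 19 lost the call at least once. Il4ra, at the size threshold, was called under RLE factors (log2 fold change -1.01), DESeq2 (-1.01) and the fit of 6 libraries (-1.01). Values under 1 CPM rest on few reads, and 3 libraries a group limit every call.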
